A study of Mus musculus with 18 samples.

Results

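The nuclear RNA exosome and the factors that hand promoter upstream transcripts to it were examined in nascent RNA of mouse embryonic stem (ES) cells. The set held 10 genes, chosen by symbol: the exosome subunits Exosc2, Exosc3, Exosc10 and Dis3, the helicase gene Mtrex, the adaptor genes Zcchc8, Rbm7 and Zfc3h1, and the cap-proximal factors Srrt and Zc3h18. All 10 were found among the 21859 protein-coding genes of the deposited gene table, and 6 of them were also found by the same symbol among the 32253 promoter upstream transcripts (PROMPTs) of a second table.

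The study used transient transcriptome sequencing (TT-seq), in which cells are given the uridine analogue 4sU for 5 min and only RNA made in that time is purified and sequenced. Its 18 libraries formed 6 groups of 3: untagged E14 ES cells and clones 1 and 2 of the SPT16 degron line, each with 0.1% ethanol or with the auxin 3-IAA for 24 h. Every line, the untagged one included, carried an integrated osTIR1, the plant F-box protein that lets auxin direct a tagged protein to degradation, and in both clones, each an independently targeted line, the endogenous SPT16 carried a mini-AID tag with a V5 epitope. SPT16 is a subunit of the histone chaperone FACT. Cells were kept feeder-free in LIF with inhibitors of GSK and MEK and had grown undisturbed for 48 h before treatment. The labels give the auxin as 500 nM whereas the study's methods give the same figure in µM, and by the methods the 3 libraries of a group were technical replicates.

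For each gene and each PROMPT the value used here was the authors' mean over libraries of read counts divided by library size factors, 1 value for each row of a table. The sources used here do not state which libraries, and so which conditions, entered that mean. It is written below as the normalised read count. It carries no standard deviation and no n, so no error stands beside the levels, no condition was compared with another, and no pair of neighbouring levels in any order given below can be said to differ beyond the spread between libraries. Levels of different genes were compared only after division by the length of the gene's span in kb, because nascent reads fall in introns as well as exons. In these bulk libraries a lower level can mean less RNA in each cell or fewer cells that make it, and the 2 cannot be told apart.

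The exosome is a barrel of catalytically inert subunits that threads RNA to 3′-to-5′ nucleases. In the nucleus it meets its substrates through the helicase MTR4, the product of Mtrex, which joins ZCCHC8 and RBM7 in the nuclear exosome targeting (NEXT) complex for short RNAs without a poly(A) tail, or ZFC3H1 in the poly(A) tail exosome targeting (PAXT) connection for polyadenylated ones. PROMPTs, short RNAs made upstream of and antisense to many mammalian promoters, are classic substrates of both routes, and ARS2 (the product of Srrt) and ZC3H18 link the cap-binding complex on such RNAs to the decay machinery.

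The means over libraries had the marker pattern of ES cells. They cannot show whether each library or condition had it, and markers of early differentiation were not examined. All 9 ES cell markers lay above the median gene per kb, from 187 normalised reads per kb for Utf1 to 5779 for Dppa5a, with 1595 for Pou5f1, the gene of OCT4. Of 14 markers of fibroblasts, hepatocytes, muscle and blood cells, 13 lay between 0.0505 reads per kb, for Ptprc, and 5.16, for Cd3e. Pdgfrb, a receptor gene of mesenchymal cells, was the exception with 23.8.

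Of the 10 genes, 8 lay in a narrow range of levels, from 176 to 288 normalised reads per kb of span. The median gene with reads stood at 21.7 reads per kb, and the 8 genes lay between percentiles 84.0 and 92.8 of the 20140 genes with reads and a position. Genes with very few reads are among these 20140, whose lower and upper quartiles were 0.669 and 117 reads per kb. Exosc3 stood apart at 20.3 reads per kb and Zc3h18 was listed at 0. The median of the 9 genes with reads was 218 reads per kb, and 217 with Zc3h18 entered at 0. Per kb of merged exons the range of the 8 genes was not narrow, from 291 for Rbm7 to 1920 for Mtrex.

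**Figure D1:**
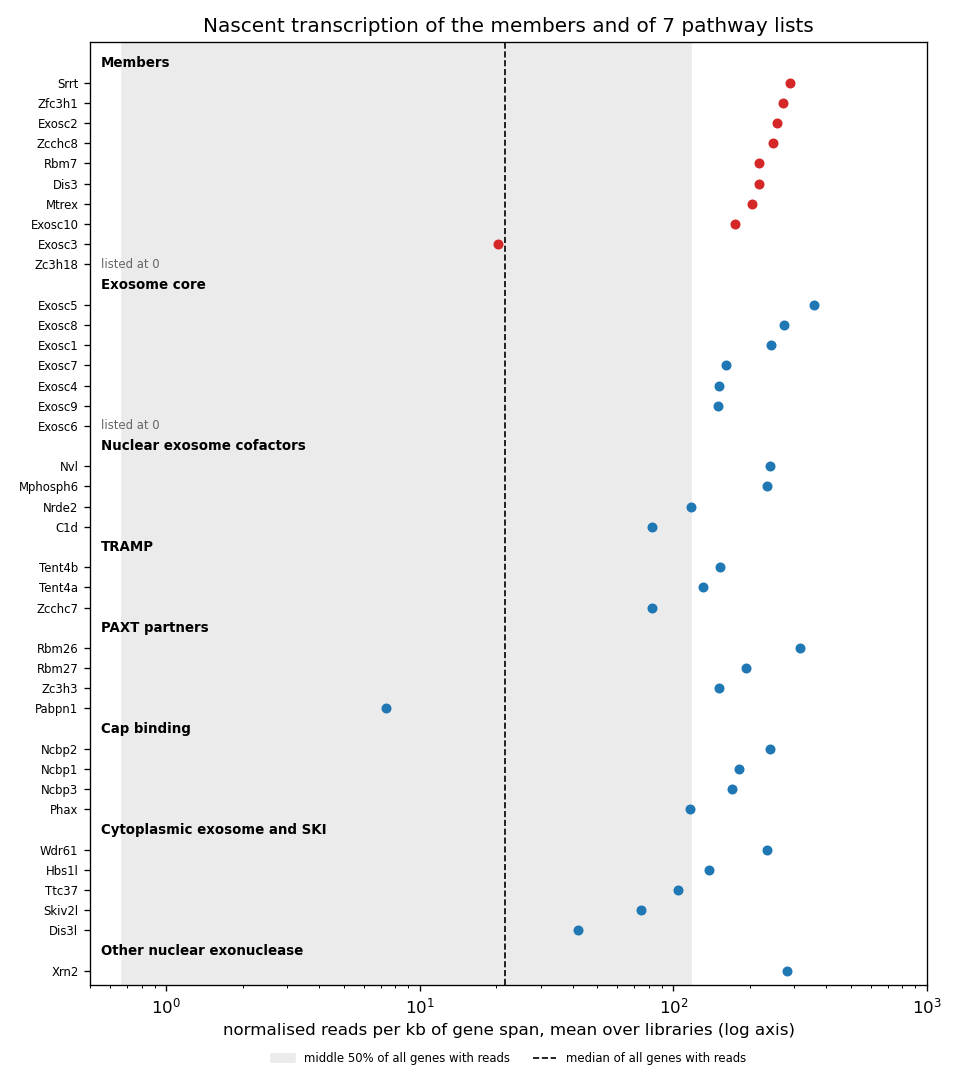
Normalised reads per kb of gene span on a log axis for the 10 members (red) and for the genes of 7 lists of other exosome, adaptor, cap-binding and exonuclease genes (blue), each point being the authors' mean over libraries. The dashed line is the median of all genes with reads, 21.7 reads per kb, the grey band their middle 50%, and 8 of 10 members lie to the right of both. Zc3h18 and Exosc6 are listed at 0.

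Among the exosome subunits, Exosc2 encodes one of the RNA-binding cap proteins of the barrel and had a normalised read count of 2737 over a span of 10.6 kb (chr2:31670715-31681349, plus strand, GRCm38), or 257 reads per kb. Exosc10 encodes the distributive nuclear 3′-to-5′ exonuclease, and its count of 4210 over 24.0 kb (chr4:148558429-148582401, plus strand) came to 176 reads per kb. Dis3 encodes the processive catalytic subunit, which also has endonuclease activity. Its count was 5325 over 24.6 kb (chr14:99075206-99099770, minus strand), or 217 reads per kb.

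Exosc3, whose product is another cap protein of the barrel, had the lowest count above 0 among the members, 531. Its level per kb depended on the gene model. In Gencode vM21 the gene reaches over 26.1 kb (chr4:45316613-45342732, minus strand) and its level was 20.3 reads per kb. In RefSeq it ends 4.00 kb from the same 3′ end, at position 45320616, and on that span the same count gave 133 reads per kb, 6.52 times more. The authors counted on vM25, which was not used here, so the span behind the deposited count of Exosc3 is not known here.

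Mtrex had a count of 12297 over the longest span among the members, 60.0 kb (chr13:112867418-112927398, minus strand), and a level of 205 reads per kb. The partners of its product in NEXT were at like levels per kb. Zcchc8, the zinc-knuckle scaffold, had a count of 5622 over 22.8 kb (chr5:123698294-123721100, minus strand) and 246 reads per kb. Rbm7, the RNA-recognition subunit, had a count of only 1439, but over the shortest span of the set, 6.60 kb (chr9:48488701-48495299, minus strand), and a level of 218 reads per kb. Zfc3h1, the zinc-finger scaffold of PAXT, had the highest count of the set, 12901, over 47.8 kb (chr10:115384959-115432772, plus strand), or 270 reads per kb.

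Srrt had the highest level per kb of the set, 288, from a count of 3452 over 12.0 kb (chr5:137295704-137307674, minus strand). It was 1.64 times that of Exosc10, the lowest of the 8 genes of the narrow range. Ranked by the uncorrected count, Srrt came sixth and Zfc3h1 first, whereas per kb of span Srrt came first and Zfc3h1 next. Per kb of merged exons the order was another, with 658 for Srrt and 1171 for Exosc10.

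Zc3h18 (chr8:122376609-122417360, plus strand, 40.8 kb) was listed at a normalised count of 0. Its whole span lies inside a much longer protein-coding gene on the same strand, Gm20388, which carries the name Galnt2l in the deposited table and covers 4.43 Mb (chr8:119910841-124345722) with only 3953 bp of exons. Gm20388 had a count of 14669. All 37 protein-coding genes nested in it on the same strand were listed at 0, Zc3h18 among them, whereas none of the 35 protein-coding genes inside the same stretch on the opposite strand was at 0 and their median count was 726. None of the 9190 exon bases of Zc3h18 is shared with an exon of Gm20388. Over the whole table, 398 of 400 genes that lie entirely within the spans of other protein-coding genes on the same strand were listed at 0, against 1279 of 21417 genes with some span of their own. The 0 of Zc3h18 was therefore not read as a level, and no fold was taken against it. Whether the gene is transcribed in these cells was not tested.

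**Figure D2:**
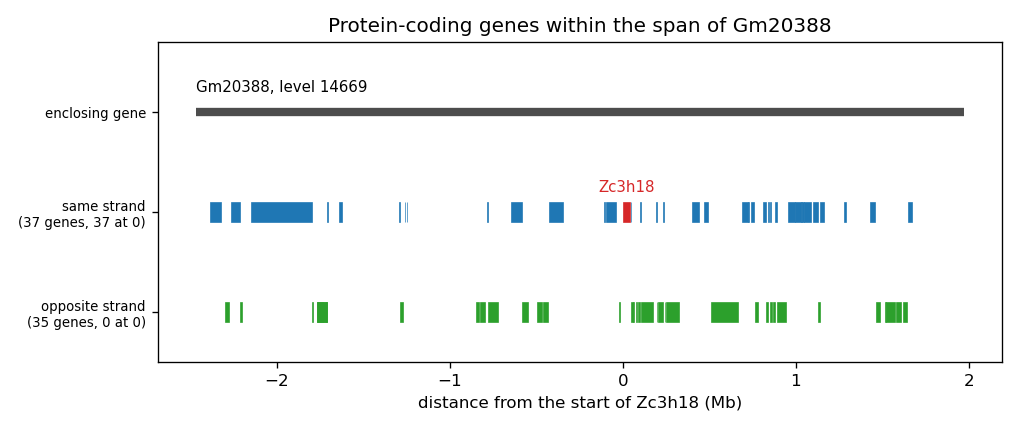
Protein-coding genes of the Gm20388 locus by distance in Mb from the start of Zc3h18, drawn to scale. The top bar is Gm20388, with a normalised count of 14669. Of the genes inside it, all 37 on the same strand (blue, Zc3h18 in red) are listed at 0, and none of the 35 on the opposite strand (green) is.

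In 7 lists of 28 genes that work beside the 10 members, 27 genes had reads, with a median of 153 reads per kb, and 26 lay above the median gene. Set against the range of the 8 members above, 16 of the 27 lay below it, 9 within it and 2 above it. That range was drawn from these same data and leaves out Exosc3 and Zc3h18. With Exosc3 included its lower end would fall, so the counts do not show that the lists lie below the members. Of the 7 other subunits of the exosome core, the 6 with reads ranged from 150 reads per kb for Exosc9 to 358 for Exosc5, with a median of 202. Exosc6, a gene of 1.33 kb, was listed at 0. It lies wholly inside another gene on its strand, the alanyl-tRNA synthetase gene Aars, whose count was 8995, and its 0 was not read as a level either.

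Among cofactors of the nuclear exosome, levels ran from 82.4 reads per kb for C1d to 239 for Nvl, a nuclear AAA ATPase. Among genes of the TRAMP complex, which oligoadenylates nuclear RNAs for decay, the lowest was Zcchc7 with 82.3 and the highest the poly(A) polymerase gene Tent4b with 153. In the list of PAXT partners, Rbm26 was highest with 316 and Pabpn1, the nuclear poly(A)-binding protein gene, lowest with 7.38. Only 0.564% of the 5.67 kb span of Pabpn1 is free of another protein-coding gene on the same strand, so this low value has the same limit as the 0 of Zc3h18. Cap-binding genes lay between 116 reads per kb for Phax, the adaptor for snRNA export, and 240 for Ncbp2, the smaller subunit of the nuclear cap-binding complex.

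The genes of the cytoplasmic exosome and its SKI helper complex had a median of 105 reads per kb, from 42.2 for Dis3l, the cytoplasmic paralogue of Dis3, to 234 for Wdr61. Xrn2, the gene of the nuclear 5′-to-3′ exonuclease, stood at 281. The level of Dis3l was thus below that of every member with reads except Exosc3 on its Gencode span.

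PROMPTs were measured in the other table, which gives for each gene a count of reads antisense to it within 1 kb upstream of its start. How reads shared with another gene were counted is not known here. The counts were therefore not read as all antisense reads of a window. Of its 32253 PROMPTs, 23257 had reads, with a median normalised count of 0.815. Rows were present for Exosc2, Exosc3, Exosc10, Zcchc8, Srrt and Zc3h18. Of these 6, 5 lay above the median PROMPT, and the median of the 6 was 7.44. That reference holds PROMPTs of genes of any type and level. Over 13975 PROMPTs with reads of protein-coding genes the median was 1.33, which the same 5 exceeded.

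The PROMPT of Srrt was the highest of the set, with a normalised count of 38.3, at percentile 95.1 of PROMPTs with reads. That of Zcchc8 followed with 21.1, at percentile 91.1. Of all PROMPTs, those at 0 included, 11.5% reached 10, and among the 6 these were Srrt and Zcchc8. Among PROMPTs with reads of protein-coding genes, the shares were 11.5%, 17.5%, 23.4% and 27.3% in the 4 groups of rising CpG ratio described below. The PROMPTs of the 3 exosome genes lay close together, at 7.58 for Exosc10, 7.30 for Exosc3 and 6.34 for Exosc2, between percentiles 78.9 and 80.9. From its Gencode start, the window of Exosc3 lies within another gene, Dcaf10, on the strand of the PROMPT. Its count cannot be told apart from reads of Dcaf10. That of Zc3h18 was at 0.505, less than 1 normalised read per library on average, at percentile 41.9. The highest and lowest of the 6 differed 75.8-fold.

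**Figure D3:**
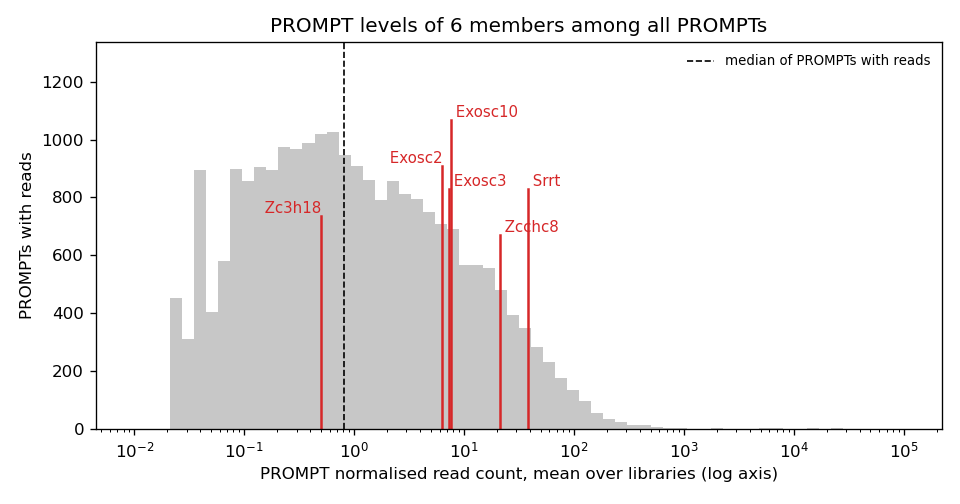
Histogram of normalised read counts, on a log axis, of the PROMPTs with reads (grey), with the values of 6 members as red lines whose height has no meaning. Zc3h18, at 0.505, lies left of the median of 0.815 (dashed), and the other 5 lie right of it, up to Srrt at 38.3.

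The 250 bases before the outermost annotated start of Srrt and Zcchc8, the members with the highest PROMPT counts, and of Zc3h18, the member with the lowest, are shown on the strand of the gene, 5′ to 3′, from the GRCm38 genome, with CpG dinucleotides in capitals. PROMPT transcription runs leftwards through them.
Srrt (chr5:137307717-137307966, minus strand): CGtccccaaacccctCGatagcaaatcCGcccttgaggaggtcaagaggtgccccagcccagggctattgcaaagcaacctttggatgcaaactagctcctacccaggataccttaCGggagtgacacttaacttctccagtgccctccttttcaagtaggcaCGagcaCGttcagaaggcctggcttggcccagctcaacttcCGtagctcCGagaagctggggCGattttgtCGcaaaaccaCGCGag
Zcchc8 (chr5:123721101-123721350, minus strand): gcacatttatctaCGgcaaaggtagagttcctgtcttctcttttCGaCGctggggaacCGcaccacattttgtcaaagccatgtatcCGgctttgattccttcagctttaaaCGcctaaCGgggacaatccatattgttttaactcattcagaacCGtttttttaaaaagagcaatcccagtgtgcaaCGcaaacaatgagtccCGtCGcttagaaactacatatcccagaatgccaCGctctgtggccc
Zc3h18 (chr8:122376314-122376563, plus strand): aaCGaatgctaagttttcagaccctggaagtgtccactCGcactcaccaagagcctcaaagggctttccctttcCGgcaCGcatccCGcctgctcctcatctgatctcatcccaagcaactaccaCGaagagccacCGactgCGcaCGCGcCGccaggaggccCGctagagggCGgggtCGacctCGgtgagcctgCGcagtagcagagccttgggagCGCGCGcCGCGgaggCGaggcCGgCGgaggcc
The stretches of Srrt and Zcchc8 each hold 12 CpG and that of Zc3h18 holds 24. Their G and C content was 56.0%, 45.6% and 65.2%.

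For the 5 members with reads on both sides, the PROMPT count, which comes from a window of 1 kb, was set against the reads per kb of the gene. The tables were normalised separately by the authors, so the ratio is approximate. It was 13.3% for Srrt, 8.58% for Zcchc8, 4.32% for Exosc10 and 2.47% for Exosc2. For Exosc3 it was 35.9%, the highest of the 5, on the Gencode span and 5.50%, below Srrt and Zcchc8, on the RefSeq span. Both values use the same PROMPT count, which may hold reads of Dcaf10, and the start behind its window is not known here. None of the 5 PROMPTs exceeded its gene. Among 12531 genes with a count of at least 10 and a PROMPT row, the median ratio was 4.27% and the PROMPT exceeded the gene at 714, or 5.70%. Among these genes the ratio stood at percentile 40.5 for Exosc2, 50.2 for Exosc10, 63.3 for Zcchc8 and 71.7 for Srrt. That of Exosc3 on the Gencode span stood at 86.0. Across these genes the levels of PROMPT and gene had a Spearman's rho of 0.58, given as a description only, since both values come from the same libraries and genes are not independent replicates. Genes that share their span with another protein-coding gene on their strand were not removed from the 12531. Pabpn1, with a PROMPT count of 39.6 against 7.38 reads per kb, is such a gene. The share of 5.70% and the percentiles of the ratio have this limit.

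**Figure D4:**
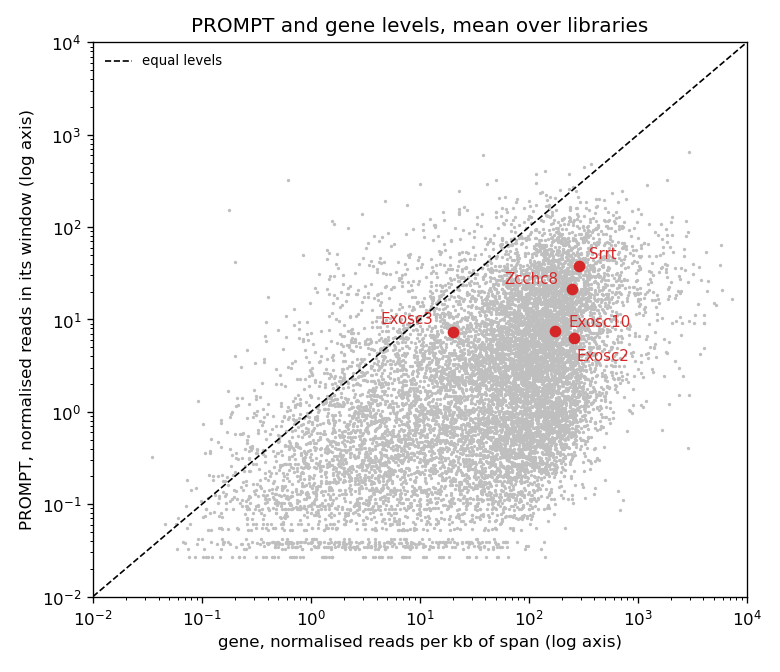
PROMPT normalised count against normalised reads per kb of the gene, both on log axes and both means over libraries, for the 11487 genes with a count of at least 10 and PROMPT reads (grey) and for 5 members (red). All 5 members lie below the dashed line of equal levels. Exosc3 is drawn at its Gencode span, 20.3 reads per kb, and would lie at 133 on its RefSeq span. The 1044 genes whose PROMPT was at 0 are not drawn.

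No PROMPT row was found for Dis3, Mtrex, Rbm7 and Zfc3h1. Each of these genes starts head to head with another protein-coding gene. The start of Dhx29, an RNA helicase gene of translation initiation, lies 56 bp upstream of that of Mtrex. The start of Gm5617 lies 143 bp upstream of Rbm7 and that of Thap2, a gene of the THAP zinc-finger family, 516 bp upstream of Zfc3h1. At Dis3 the partner is Pibf1, a centrosomal protein gene, whose start lies 346 bp inside Dis3, so that the transcripts overlap at their 5′ ends.

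The description deposited with the tables states that windows near another protein-coding transcript were left out. The 1000 bp upstream of these 4 members overlaps the neighbouring gene. Dhx29 had 91.5 normalised reads per kb against 205 for Mtrex, Thap2 had 58.9 against 270 for Zfc3h1, and Pibf1 had 92.7 against 217 for Dis3. Of the 4, Rbm7 was the gene with the lower level of the pair, 218 against 266 for Gm5617, a gene of 0.531 kb with a count of 141. Pibf1 kept a PROMPT row of its own, with a count of 3.30, although its window lies within the body of Dis3. That count was far below the 217 reads per kb of Dis3, which is transcribed on the strand of that PROMPT. The reason was not tested.

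**Figure D5:**
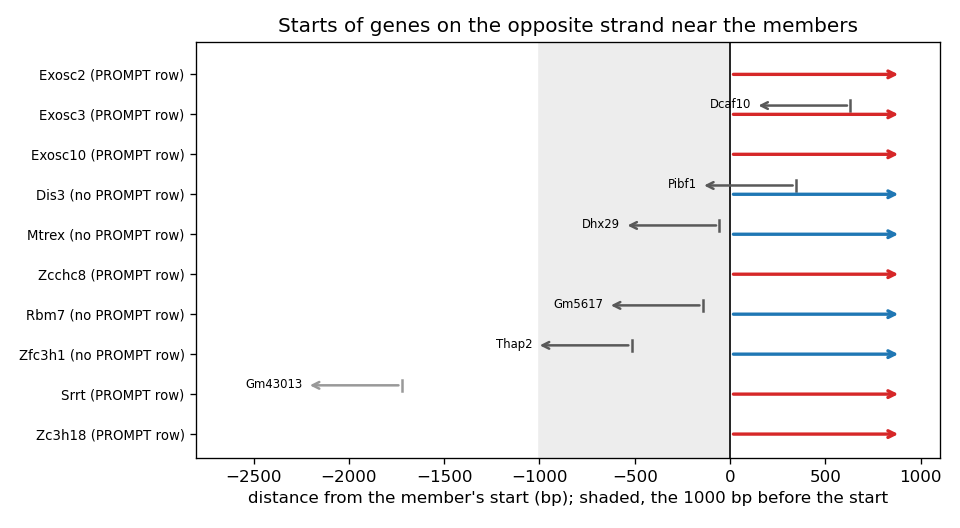
Starts of genes on the opposite strand, by distance in bp from the start of each member, whose own transcription runs to the right (red with a PROMPT row, blue without). Short arrows give direction and not length. Mtrex, Rbm7 and Zfc3h1 have a protein-coding start in the shaded 1000 bp before their own, at 56, 143 and 516 bp, and Dis3 and Exosc3 have one just inside the gene.

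The distance between the starts of Mtrex and Dhx29 is so short that the whole stretch can be shown, on the strand of Mtrex with CpG in capitals. It is 55 bases long and holds 8 CpG.
Mtrex-Dhx29 (chr13:112927399-112927453, minus strand): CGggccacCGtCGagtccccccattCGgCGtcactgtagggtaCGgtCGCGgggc

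Exosc3 was the exception among members with a close neighbour. In Gencode vM21 the start of Dcaf10, a gene for a substrate receptor of ubiquitin ligases, lies 631 bp inside the longest transcript of Exosc3, yet Exosc3 had a PROMPT row. Dcaf10 had 95.4 normalised reads per kb. The 1000 bp upstream of the Gencode start of Exosc3 lie within Dcaf10, on the strand of the PROMPT. Reads of Dcaf10 and of a PROMPT cannot be told apart there. From its RefSeq start Exosc3 does not reach Dcaf10. Which start the deposited window was drawn from is not known here. Exosc2, Exosc10, Zcchc8 and Zc3h18 had no start of any annotated gene on the opposite strand from 2000 bp upstream to 1000 bp inside the gene, and at Srrt the nearest was that of the processed pseudogene Gm43013, 1722 bp upstream.

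Over all protein-coding genes with a unique symbol, 1086 of 2363 with a start of another gene on the opposite strand within 1000 bp upstream had a PROMPT row, or 46.0%, against 16950 of 19592 without one, or 86.5%. None of the 3 members with such a start had a row. PROMPT counts were compared over genes of any type, not only protein-coding ones. Among these PROMPTs with reads, those with such a start had a median normalised count of 0.971 (n = 1290) and the others 0.811 (n = 21355), a ratio of 1.20. Among PROMPTs with a count of at least 1 the ratio turned to 0.762. Reads of a head-to-head neighbour can fall in the window on the PROMPT strand and cannot be told apart from a PROMPT.

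The base composition of the 1000 bp upstream of the Gencode start also differed among the members. The ratio of CpG observed to that expected from the C and G content had a median of 0.342 over 21131 such windows. It was 0.695 for Mtrex, 0.747 for Dis3, 0.761 for Zfc3h1 and 0.948 for Rbm7, between percentiles 88.5 and 99.0, so the 4 members without a PROMPT row had the highest values of the set. Each of these 4 windows overlaps the neighbouring gene, as does that of Exosc3, with 0.454. Their composition is thus not that of the member's promoter alone. The ratio of all genes with and without a row was not compared. Windows of the members with a row ranged from 0.248 for Exosc2 to 0.583 for Zc3h18, with 0.382 for Srrt. Of the PROMPTs with reads, 13975 belonged to genes with such a window, and their median count was 1.33. In 4 groups of nearly equal size and rising CpG ratio, the median count of 13974 of these with a CpG ratio was 0.420, 1.31, 2.22 and 2.54. The PROMPTs of Srrt and Zc3h18 did not follow that order between them, Zc3h18 having the higher ratio and the lower count.

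In the same windows the letters AATAAA, the core of the poly(A) signal, and GGTAAG, a form of the 5′ splice site, were searched on both strands, and the 2 cannot overlap. AATAAA stood on the strand of the PROMPT in 40.9% of all windows and on that of the gene in 46.6%, and GGTAAG in 14.6% and 14.7%. On the PROMPT strand AATAAA was present 2 times at Zcchc8 and 1 time at Zfc3h1. GGTAAG was present on that strand 1 time at Mtrex and 2 times at the Gencode start of Exosc3, and not at its RefSeq start. The other members had neither on that strand. Over the same 13975 PROMPTs with reads and a window, the median count was 1.20 with AATAAA on the PROMPT strand and 1.44 without, and 1.27 and 1.35 for GGTAAG. Srrt, with the highest PROMPT count, and Zc3h18, with the lowest, both lacked the letters on that strand.

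Of the 28 genes of the 7 lists, 16 had PROMPT rows, with a median count of 5.67. The highest were those of Xrn2 with 212, at percentile 99.7, and of the PAXT partner gene Zc3h3 with 171, at percentile 99.6. Both were above the PROMPT of every member. Exosc6 had a PROMPT count of 18.9 and Pabpn1 one of 39.6. Their gene counts, 0 and 41.8, have the limit given above for genes overlapped on their strand and were not read as levels. In the exosome core only Exosc6 and Exosc9 had a row, the latter with 8.87, near the values of Exosc2, Exosc3 and Exosc10. The lowest was that of C1d, with 0.127.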

How the data were processed

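TT-seq libraries of E14 ES cells (18, in 6 groups of 3) were examined through 2 deposited tables. Reads had been trimmed (Trim Galore), mapped by the authors to mm10 using STAR with unique hits only, and counted by strand with featureCounts for Gencode vM25 protein-coding genes and PROMPT windows. The deposited normalised read signal (baseMean) is the mean over libraries of counts the authors divided by DESeq2 size factors, made separately for each table. Which libraries entered the mean is not stated in the sources used here. The tables also hold the authors' log2 fold changes, standard errors and p-values for SPT16 depletion, which were not used, so no comparison between conditions was made. Tables of enhancer RNAs and other non-coding RNAs were not used here.

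Counts summed to 5.58985e+07 per library on average for genes and 241485 for PROMPTs. The depth of each library is unknown here, and the depth limits PROMPTs below 1 read most.

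Positions came from Gencode vM21 on GRCm38, the build of mm10. Of 21859 gene IDs 21817 matched, and of 32253 PROMPT symbols 31343 matched 1 gene. Gene span was the length for levels per kb. A percentile is the share of features with reads that had a lower value. Sequences were read from RefSeq's GRCm38.p6 genome. Levels were computed with Python 3.11.15, numpy 2.4.6, pandas 2.3.3, scipy 1.17.1 and pysam 0.24.0, and drawn with matplotlib 3.10.9. The interval functions were tested on simulated data. Members and lists were chosen with earlier results of these data known. Named genes were the 10 members, genes starting near a member, and the highest and lowest of each list per kb; Gm20388, Aars and the PROMPTs of list genes were picked once their values were known.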

Additional observations from a re-analysis of the deposited data

How the results depend on the processing

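All values here are means over the libraries, so no library was left out. No paired analysis was possible because the columns used carry no library or replicate. The median count of the members, 3831 at percentile 79.0, became 4210 at percentile 80.5 without Zc3h18 and 3744 as a geometric mean of the 9 members above 0, and stood at percentile 76.1 among genes with a count of at least 1 and 72.6 among those with at least 10. The median per kb, 217 at percentile 88.4, became 218 at percentile 88.5 without Zc3h18, 224 with RefSeq spans, 177 as a geometric mean and 817 at percentile 79.7 per kb of merged exons, and stood at percentile 84.9 among genes with a count of at least 10. The median member PROMPT, 7.44 at percentile 80.7, became 7.23 as a geometric mean and stood at percentile 58.8 among PROMPTs with at least 1. Among those with at least 10 it stood at percentile 0, which the cut-off alone fixes because it lies above 7.44. With neighbours on either side of the start counted, 5 members had one in place of 3, and with 500 or 2000 bp, 2 and 4. The ratio of median PROMPT counts with and without a neighbouring start, 1.20, was 1.14 with 500 bp, 1.23 with protein-coding neighbours only, and 0.762 at a count of at least 1. The median of the 28 list genes, 152 per kb of span, was 886 per kb of exon and 153 per kb of span without Exosc6. The number of members whose PROMPT exceeded the gene was 0. Merged exon length and leaving out members with a neighbouring start could not raise it, so these settings are no check of it. The settings without Zc3h18 or Exosc6, with RefSeq spans and with both sides of the start were chosen after seeing the data.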

Other observations

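The pattern seen at Zc3h18 and Exosc6 extended over the gene table. Of 400 protein-coding genes without any span of their own on their strand, 317 have at least 500 exon bases that no exon of the enclosing genes shares, and 316 of these 317 were listed at 0. In all, 1702 of 21859 genes were listed at 0. Rpl13, a ribosomal protein gene, and Cox4i1, a gene of cytochrome c oxidase, were among the genes nested in Gm20388 and listed at 0. No level was read from the 0 of a nested gene.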
